A study of Homo sapiens with 6 samples.

Results

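The genes described here are those of fatty acid oxidation in mitochondria and peroxisomes, read from total RNA of HEK293, a human line derived from embryonic kidney cells. A list of 37 symbols named them: the carnitine shuttle, acyl-CoA synthetases and dehydrogenases, hydratases and thiolases, the electron transfer flavoprotein, peroxisomal enzymes and the receptor PPARA. Each symbol matched 1 row among the 60675 gene rows of the count table, and all 37 passed the low-count filter that left 18267 genes. The 3 libraries of MOCS2 RNAi knockdown cells were set against 3 libraries of control cells, which the labels call wild type. Both were grown in high-glucose medium with serum and Geneticin, a selection antibiotic, and the labels do not say whether either line is a clone, nor that the replicates were separate cultures. The p-values therefore measure the spread between these libraries, which may be technical.

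Fatty acids are burned in mitochondria by beta-oxidation, a cycle of dehydrogenation, hydration, a further dehydrogenation and thiolysis that shortens an acyl-CoA and releases acetyl-CoA. Long chains must first be activated to acyl-CoA by synthetases, handed to carnitine by CPT1 at the outer membrane and returned to coenzyme A by CPT2 at the inner one. The acyl-CoA dehydrogenases pass electrons to the flavoprotein ETF and from there, through ETFDH, to ubiquinone. Peroxisomes run a parallel cycle for very long and branched chains, and PPARA is a lipid-sensing receptor that switches on many of these genes, best known from liver and kidney tubule.

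Between 17958632 and 22171106 reads per library were assigned to genes. MOCS2 itself did not mark the groups. It stood at 69.8, 58.9 and 59.9 CPM (reads relative to the library's total in genes, scaled by library composition) in libraries labelled knockdown 1, 2 and 3, and at 57.8, 66.6 and 65.6 CPM in controls 1, 2 and 3 (log2 fold change -0.01 ± 0.14 SE, the standard error of the fold change, with an edgeR adjusted p of 0.976). The targeted gene thus goes against the label, and each direction given here is that of the libraries labelled knockdown. These libraries also differed from one another. Knockdown 2 had 37.5% of its uniquely aligned reads outside annotated genes, against 22.3% and 21.5% in knockdown 1 and 3 and 23.6% to 25.0% in the controls. Among the genes that HEK293 is known to express, KRT8, KRT18, VIM and the neurofilament gene NEFL were all present, at group means above 100 CPM.

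Most genes of the oxidation pathway had lower values in the libraries labelled knockdown, and none passed the test. A negative log2 fold change was found in 34 of 37 genes (91.9%), against 48.2% of all genes tested, and their median was -0.34 against 0.02 over all genes. EdgeR's quasi-likelihood test with adjustment over all genes called 0 of the 37, as it called 0 of 18267 genes (0%). At an unadjusted p under 0.05, 14 of the 37 were lower (37.8%) and 0 higher, where 10.6% of all genes were lower and 9.93% higher. In 13 of the 37 every library labelled knockdown lay below every control (35.1%), against 14.3% of all genes, and in 0 every one lay above, against 12.5%. Summed over the 37 genes, the level was 1797, 1507 and 2220 CPM in knockdown 1, 2 and 3, and 2264, 2519 and 2347 CPM in controls 1, 2 and 3.

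The shift was unequal among the 3 libraries. Relative to the control mean on the log2 scale, the median of the 37 genes was -0.49 in knockdown 1, -0.79 in knockdown 2 and -0.13 in knockdown 3, against -0.07, 0.07 and 0.00 in controls 1, 2 and 3. Over all genes these medians lay between -0.0034 and 0.011. Knockdown 2 was the lowest of the 6 libraries for 26 of the 37 genes (70.3%), against 25.6% of all genes, and it was also the library with the high share of reads outside genes. The part of that share in the result was not tested. Without knockdown 2 the median of the 37 genes was -0.29. Knockdown 3 lay close to the controls. Without it the median was -0.59, and edgeR called 15 of the 37 lower (40.5%) at an adjusted p under 0.05, against 8.30% of 19062 genes lower and 6.46% higher. DESeq2 on all 6 libraries called 6 lower (16.2%), against 3.21% of all genes lower and 3.06% higher, and limma voom called 0 (0%). Without the low-count filter edgeR called 8 lower (21.6%), against 2.03% of 43251 genes lower and 1.60% higher. These 43251 include genes with few reads that the filter removes, while all 37 pass it, so the shares are not of like genes. With replicate numbers as a block it called 0 of the 37, against 0.0712% lower and 0.0328% higher, and without control 3 also 0, against 0.0212% lower.

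**Figure D1:**
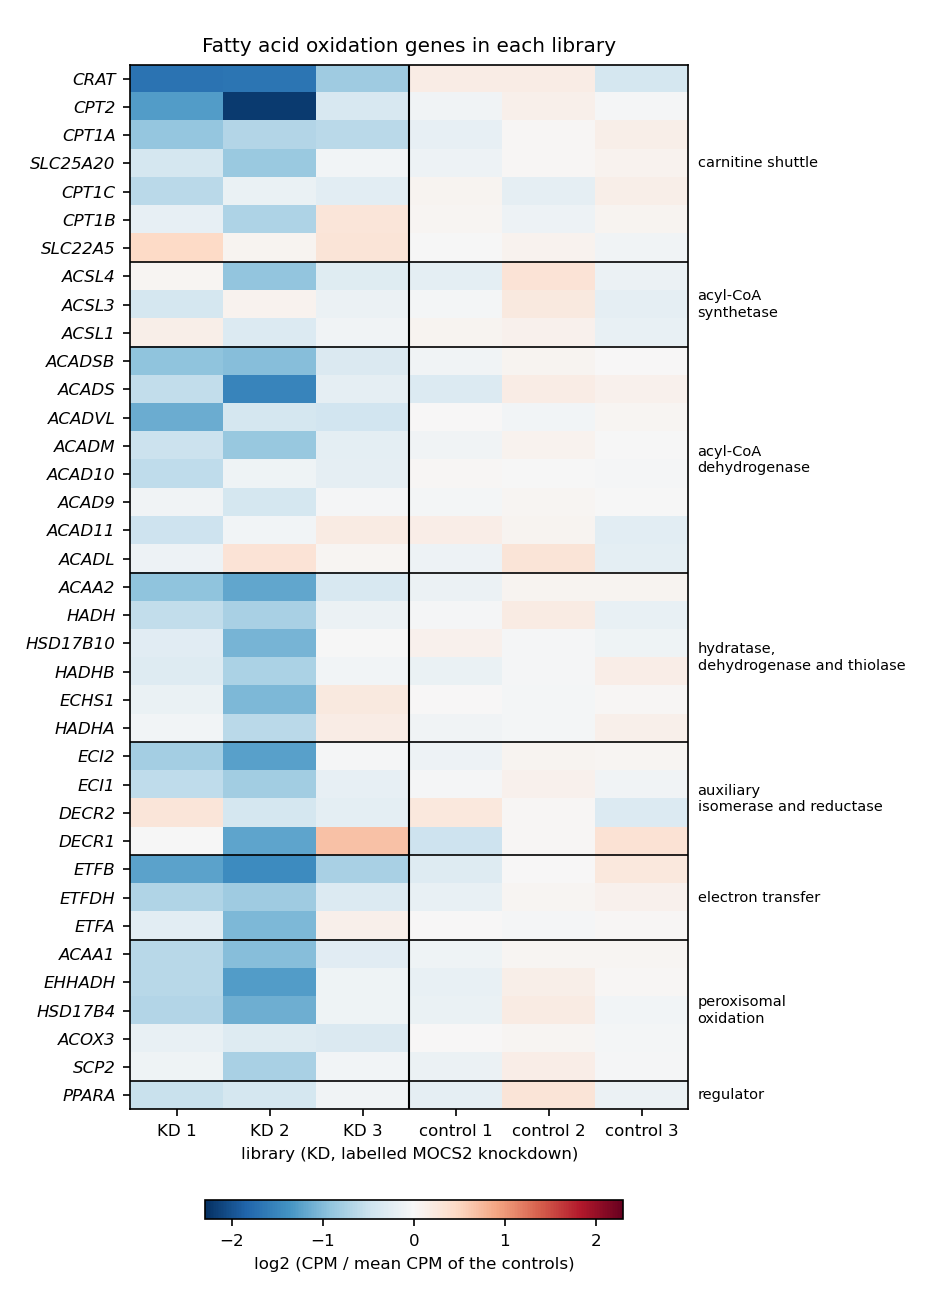
Level of each of the 37 genes (rows, grouped by role) in each library (columns), as log2 of its CPM over the mean CPM of the controls, with blue for lower and red for higher. Knockdown 1 and 2 are blue in most rows, with CPT2 and CRAT darkest, while knockdown 3 is pale.

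In the carnitine shuttle, which carries long-chain acyl groups into mitochondria, 3 of 7 genes had groups that did not overlap, all lower. Over all genes 14.3% separated in this direction, and 7 genes are few for such a share. CPT1A (ENSG00000110090, chromosome 11, 68754620 to 68844410, minus strand, GRCh38), the carnitine palmitoyltransferase of liver and kidney that controls entry, stood at 10.6, 12.3 and 12.9 CPM in knockdown 1, 2 and 3 and at 17.3, 20.1 and 21.8 CPM in the controls. The 3 libraries labelled knockdown lay close together and below every control, with means of 11.9 ± 1.17 and 19.8 ± 2.25 CPM (SD, n = 3 each; log2 fold change -0.72 ± 0.18 SE, edgeR adjusted p = 0.0981). When each library was left out in turn, the log2 fold change of CPT1A ran from -0.81 to -0.65.

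CPT2 (chromosome 1, 53196429 to 53214197, plus strand), the partner enzyme at the inner membrane, stood at 14.8, 7.76 and 27.8 CPM in knockdown 1, 2 and 3, against 33.8, 38.8 and 35.1 CPM in the controls. Its groups did not overlap, but the libraries labelled knockdown ranged widely (log2 fold change -1.10 ± 0.35 SE, edgeR adjusted p = 0.137). Without knockdown 2 the value was -0.76, and without knockdown 3 it was -1.68 (edgeR adjusted p = 0.00292). CPT2 has 12.0% of its exon bases opposite other genes, and whether reads were counted by strand is unknown. CRAT (chromosome 9, 129094810 to 129111189, minus strand), which moves short acyl groups between carnitine and coenzyme A, had the most negative fold change of the 37. It stood at 2.09, 2.13 and 3.85 CPM in knockdown 1, 2 and 3 and at 7.60, 7.59 and 5.13 CPM in the controls (log2 fold change -1.33 ± 0.31 SE, edgeR adjusted p = 0.0916). Knockdown 3 and control 3 came nearest to each other, and the lowest count behind these values was 37 reads.

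The other shuttle genes were less separated. SLC25A20, the carnitine-acylcarnitine carrier of the inner membrane, averaged 8.94 ± 2.40 CPM in libraries labelled knockdown and 11.8 ± 0.826 CPM in controls, and its groups overlapped. SLC22A5, the cell-surface carnitine transporter, had the highest fold change among the 37, at 48.8 ± 6.63 and 40.3 ± 2.16 CPM (log2 fold change 0.28 ± 0.15 SE, 95% interval -0.06 to 0.61, edgeR adjusted p = 0.33). CPT1B, the muscle form, stood at 2.43, 1.701 and 3.38 CPM in knockdown 1, 2 and 3 and 2.88, 2.56 and 2.92 CPM in controls. CPT1C, a form best known from neurons, stood at 3.45, 4.78 and 4.48 CPM in knockdown 1, 2 and 3 and 5.53, 4.58 and 5.84 CPM in controls. Neither separated the groups. CPT1B shares 66.4% of its exon bases with the readthrough gene CHKB-CPT1B, so its count is uncertain. Per kilobase of exon, CPT1A made up 57.8%, 60.4% and 55.3% of the 3 CPT1 genes in knockdown 1, 2 and 3, against 61.6%, 68.6% and 66.0% in the controls. CPT1A was thus the leading form in every library, with a smaller share in each library labelled knockdown than in any control.

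The acyl-CoA synthetases, which activate fatty acids before oxidation or lipid synthesis, showed no separation. ACSL3, an enzyme of the endoplasmic reticulum and lipid droplets, averaged 286 ± 49.1 CPM in libraries labelled knockdown and 315 ± 48.1 CPM in controls. ACSL4, which prefers arachidonate, averaged 96.6 ± 29.9 and 122 ± 25.1 CPM, and ACSL1 39.5 ± 6.27 and 41.6 ± 4.14 CPM. Their log2 fold changes ran from -0.33 to -0.07. Per kilobase of exon ACSL3 was the most abundant of the 3, at 39.5 and 43.5 RPKM (CPM per kilobase of exon) in libraries labelled knockdown and in controls.

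Among the acyl-CoA dehydrogenases, which open the cycle, 4 of 8 genes had groups that did not overlap, all lower, against 14.3% of all genes. ACADVL, for very long chains, stood at 78.5, 132 and 129 CPM in knockdown 1, 2 and 3 and at 175, 167 and 180.2 CPM in controls. Here knockdown 1 was the lowest library, not knockdown 2 (log2 fold change -0.63 ± 0.20 SE, edgeR adjusted p = 0.133). ACADM, for medium chains, stood at 51.6, 39.5 and 62.0 CPM in knockdown 1, 2 and 3 and at 68.5, 76.3 and 72.1 CPM in controls (log2 fold change -0.50 ± 0.18 SE, edgeR adjusted p = 0.155). ACADSB, which acts on short branched chains from isoleucine, stood at 33.0, 31.8 and 50.02 CPM in knockdown 1, 2 and 3 and at 59.5, 65.5 and 62.9 CPM in controls (log2 fold change -0.71 ± 0.19 SE, edgeR adjusted p = 0.105). In all of these the controls lay within a narrow band above every library labelled knockdown.

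Of the remaining dehydrogenases, whose log2 fold changes ran from -0.67 (ACADS) to 0.09 (ACADL), ACAD10 was the fourth gene without overlap, at 17.3 ± 2.87 CPM in libraries labelled knockdown and 21.0 ± 0.388 CPM in controls. Its shift was small (log2 fold change -0.28, edgeR adjusted p = 0.397). ACADS, for short chains, averaged 4.13 ± 1.72 and 6.57 ± 1.12 CPM, with knockdown 3 inside the range of the controls. ACAD9, known mainly as an assembly factor of respiratory complex I, averaged 37.3 ± 4.92 and 41.7 ± 1.23 CPM, and 10.5% of its exon bases lie opposite another gene. ACADL, the long-chain enzyme, averaged 10.6 ± 1.66 and 9.96 ± 1.94 CPM, and its fold change (0.09) turned negative without knockdown 2 or control 3. ACAD11 averaged 2.13 ± 0.474 and 2.27 ± 0.317 CPM, and it has 21.6% of its exon bases opposite other genes, so its count is uncertain.

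**Figure D2:**
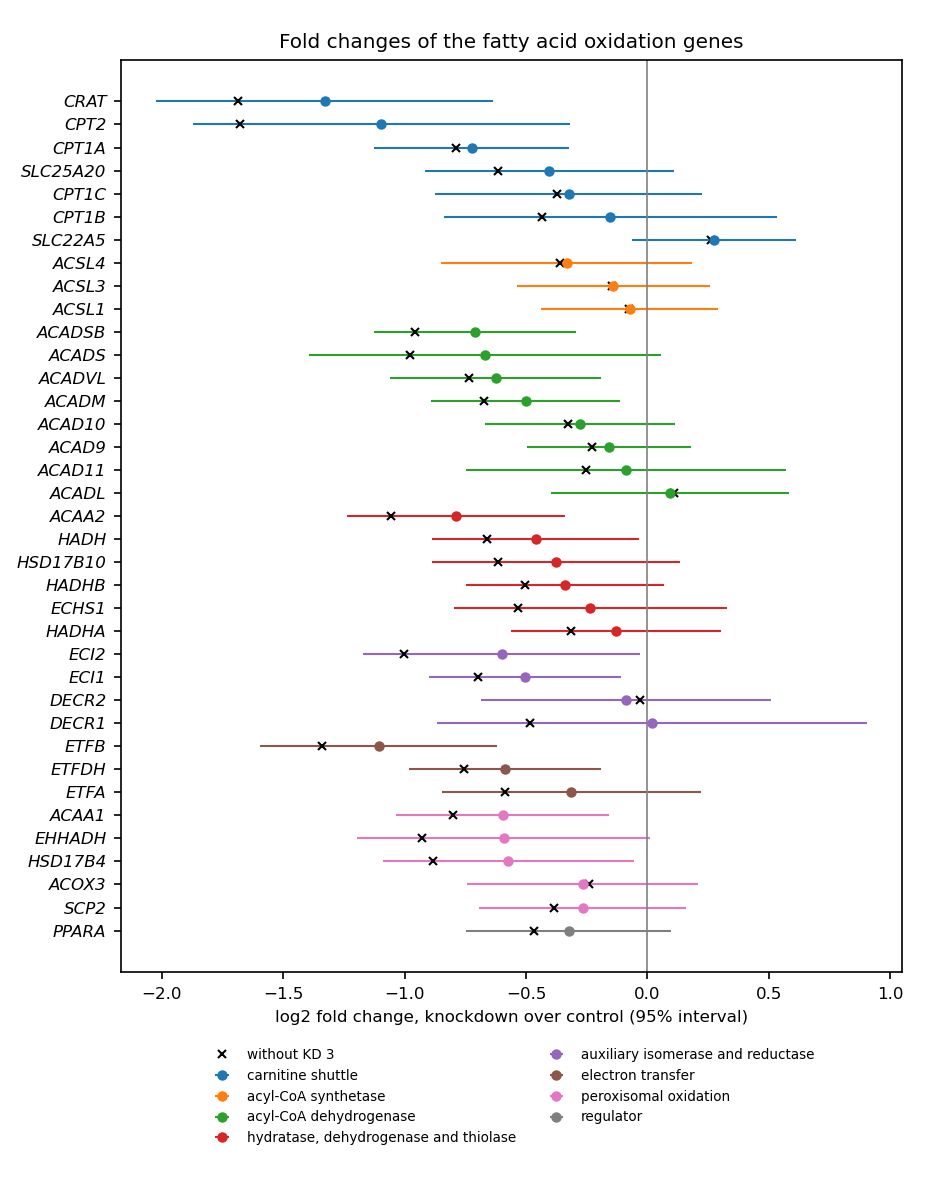
Log2 fold change of knockdown over control for each gene (points, coloured by role) with its 95% interval from edgeR, and the value without knockdown 3 (crosses). The points of 34 genes lie left of 0, and the interval of 14 lies wholly left of it. The crosses lie further left for most genes.

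The next enzymes of the cycle include the most abundant members per length, HSD17B10 and ECHS1, and most of them overlapped between groups. ECHS1, the short-chain enoyl-CoA hydratase, averaged 84.6 ± 33.7 CPM in libraries labelled knockdown and 99.5 ± 2.39 CPM in controls, or 52.3 and 61.5 RPKM. HSD17B10, a hydroxyacyl-CoA dehydrogenase that is also a subunit of mitochondrial RNase P, averaged 66.1 ± 22.8 and 85.9 ± 5.86 CPM, or 59.2 and 77.0 RPKM. In both genes knockdown 2 was the lowest library and knockdown 3 lay within or above the controls. HADH, the short-chain hydroxyacyl-CoA dehydrogenase, stood at 21.9, 19.2 and 29.5 CPM in knockdown 1, 2 and 3 and at 31.8, 36.8 and 28.6 CPM in controls (log2 fold change -0.46, edgeR adjusted p = 0.216), and control 3 lay below knockdown 3.

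ACAA2 (chromosome 18, 49782167 to 49813960, minus strand), the mitochondrial thiolase that releases acetyl-CoA, stood at 53.2, 43.7 and 77.5 CPM in knockdown 1, 2 and 3 and at 91.5, 105.1 and 104.7 CPM in controls. It was the only gene of its role whose groups did not overlap (log2 fold change -0.79 ± 0.20 SE, edgeR adjusted p = 0.102). The trifunctional protein, which carries out the same last 3 steps on long chains, moved less. Its alpha subunit HADHA stood at 182, 124 and 214 CPM in knockdown 1, 2 and 3 and at 180.5, 183 and 206 CPM in controls, so that knockdown 3 was the highest library of all. Its beta subunit HADHB stood at 76.5, 56.4 and 89.6 CPM in knockdown 1, 2 and 3 and at 84.6, 92.0 and 105 CPM in controls (log2 fold change -0.34, edgeR adjusted p = 0.319; HADHA -0.13, adjusted p = 0.74). Without knockdown 2 the HADHA value was positive, at 0.06, and that of HADHB was -0.18. Without knockdown 3 HADHA was at -0.31.

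HADHA and HADHB lie head to head on chromosome 2, with 306 bases between their RefSeq starts (26244632 on the minus strand and 26244939 on the plus strand, GRCh38.p14). The log2 ratio of HADHA to HADHB counts was 1.253, 1.14 and 1.26 in knockdown 1, 2 and 3 and 1.09, 1.00 and 0.97 in controls, a difference of 0.20 with no overlap. For ACAA2 over HADHB the log2 ratio was -0.53, -0.37 and -0.21 in knockdown 1, 2 and 3 and 0.11, 0.19 and -0.0035 in controls, a difference of -0.47. An exact two-sided permutation test gave p = 0.1 for each, the smallest that 3 against 3 can give (Benjamini-Hochberg 0.2 over 6 ratios compared). So each library labelled knockdown held less ACAA2 relative to HADHB than any control, and less HADHB relative to HADHA.

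Of the auxiliary enzymes that handle double bonds already in the chain, the isomerases had the lower values. ECI1, the mitochondrial enoyl-CoA isomerase, stood at 27.6, 23.9 and 36.5 CPM in knockdown 1, 2 and 3 and at 40.9, 44.5 and 39.4 CPM in controls, without overlap (log2 fold change -0.50 ± 0.18 SE, edgeR adjusted p = 0.159). ECI2, which also works in peroxisomes, stood at 55.4, 39.8 and 93.0 CPM in knockdown 1, 2 and 3 and at 87.7, 99.96 and 97.9 CPM in controls (log2 fold change -0.60, edgeR adjusted p = 0.224). Here knockdown 3 lay within the controls, and the value was -1.004 without it and -0.365 without knockdown 2. ECI2 has 29.8% of its exon bases opposite other genes. The reductases DECR1 and DECR2 averaged 8.42 ± 4.87 and 5.32 ± 1.36 CPM in libraries labelled knockdown, against 8.33 ± 2.28 and 5.64 ± 1.06 CPM in controls. DECR1 ran from 3.61 CPM in knockdown 2 to 13.3 CPM in knockdown 3, and its fold change had no stable sign.

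Electron transfer from the dehydrogenases had the lowest role median, at -0.59 over 3 genes. ETFB (ENSG00000105379, chromosome 19, 51345169 to 51366418, minus strand), the beta subunit of the flavoprotein, had the smallest p of the 37. It stood at 12.9, 11.0 and 18.04 CPM in knockdown 1, 2 and 3 and at 24.7, 30.3 and 35.4 CPM in controls, so that the mean of the libraries labelled knockdown was 46.4% of the control mean. The log2 fold change was -1.11 with a standard error of 0.22 and a 95% interval of -1.60 to -0.62 (edgeR adjusted p = 0.0767, DESeq2 adjusted p = 0.000701), and it stayed between -1.34 and -0.97 when any 1 library was left out. ETFDH, the ubiquinone oxidoreductase that empties the flavoprotein, stood at 20.8, 18.9 and 27.1 CPM in knockdown 1, 2 and 3 and at 29.7, 34.7 and 36.0 CPM in controls, also without overlap (log2 fold change -0.59 ± 0.18 SE, edgeR adjusted p = 0.125). ETFDH has 13.8% of its exon bases opposite other genes.

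ETFA, the alpha subunit that pairs with ETFB, behaved otherwise. It stood at 172, 99.1 and 218 CPM in knockdown 1, 2 and 3 and at 203, 198 and 206 CPM in controls, and knockdown 3 was above all controls (log2 fold change -0.31 ± 0.24 SE, edgeR adjusted p = 0.485; -0.06 without knockdown 2 and -0.59 without knockdown 3). The log2 ratio of ETFA to ETFB counts was 3.74, 3.17 and 3.60 in knockdown 1, 2 and 3 and 3.04, 2.71 and 2.54 in controls, without overlap and with a difference of 0.74 (exact two-sided permutation p = 0.1, Benjamini-Hochberg 0.2 over 6 ratios). The ratios of ETFA to ETFDH, CPT2 to CPT1A and ACADVL to ACADM overlapped between groups. Per kilobase of exon ETFB made up 4.85%, 6.59% and 5.30% of the ETFA, ETFB and ETFDH levels in knockdown 1, 2 and 3, against 7.44%, 8.98% and 9.98% in controls.

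**Figure D3:**
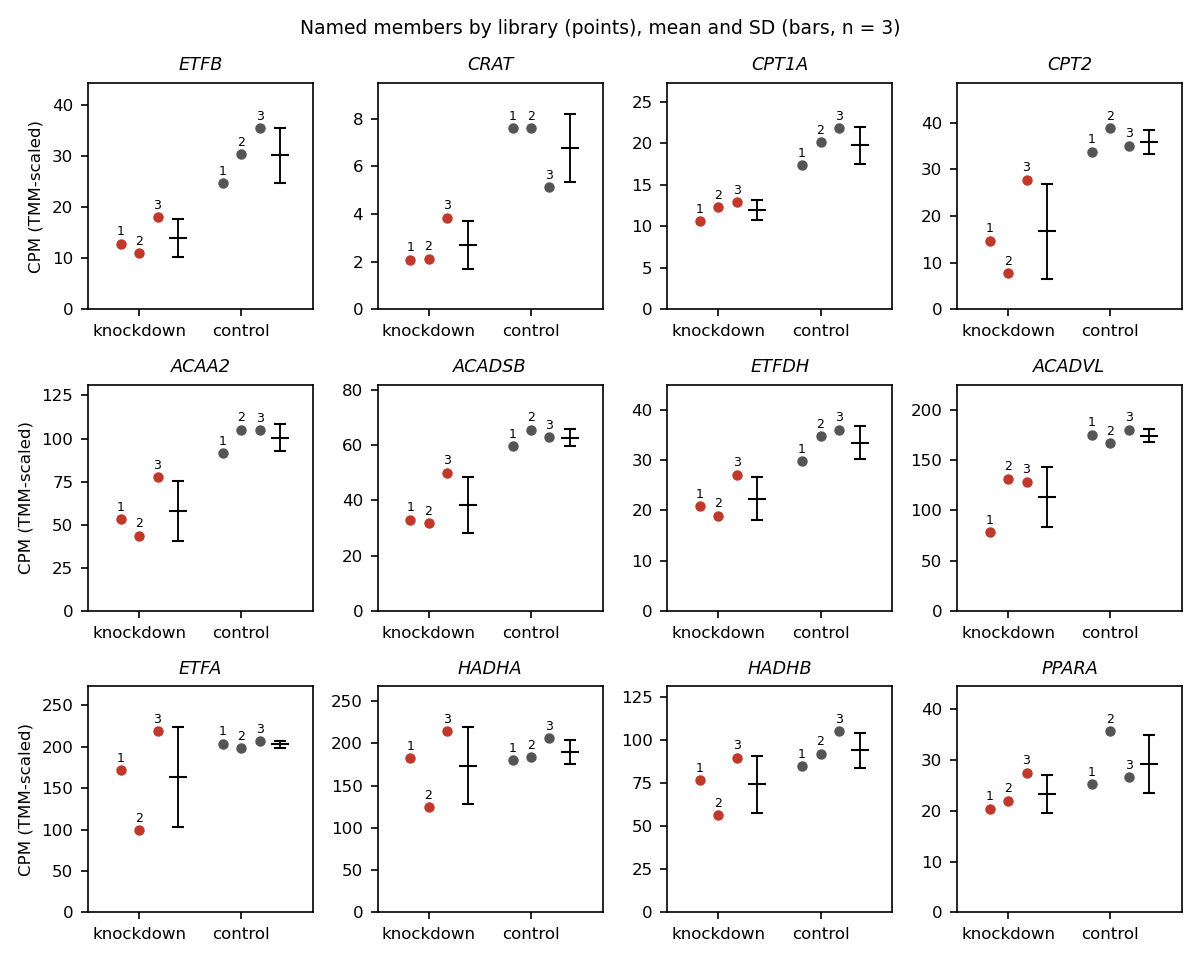
Levels of 12 genes in CPM by library, with knockdown left of control, each point numbered by its replicate and bars for the mean and SD of 3 libraries. ETFB, CRAT, CPT1A, CPT2, ACAA2, ACADSB, ETFDH and ACADVL do not overlap between groups, while ETFA, HADHA, HADHB and PPARA do.

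Because the subunits of this heterodimer had unlike values, the DNA just upstream of each is shown, from RefSeq (GRCh38.p14), cut to the bases that no annotated exon covers. The stretches are chr15:76311473-76311719 for ETFA and chr19:51366419-51366638 for ETFB, both on the minus strand and written 5′ to 3′. Capitals mark CCAAT boxes (CCAAT, or ATTGG on the other strand) and GC boxes (GGGCGG, or CCGCCC on the other strand).
ETFA: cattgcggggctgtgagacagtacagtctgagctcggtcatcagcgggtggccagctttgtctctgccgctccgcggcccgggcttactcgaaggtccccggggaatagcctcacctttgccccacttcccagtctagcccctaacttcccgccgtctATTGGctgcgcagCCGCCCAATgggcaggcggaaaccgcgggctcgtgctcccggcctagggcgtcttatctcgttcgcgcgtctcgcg
ETFB: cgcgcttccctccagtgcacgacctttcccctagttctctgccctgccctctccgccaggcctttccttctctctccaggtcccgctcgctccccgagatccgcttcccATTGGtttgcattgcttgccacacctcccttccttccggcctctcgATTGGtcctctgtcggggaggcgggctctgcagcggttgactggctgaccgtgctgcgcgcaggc
Each stretch holds 2 CCAAT boxes, and that of ETFA has also a GC box that overlaps a CCAAT box. ETFB too has a GC box in its uncut entries of 250 bases, in bases not printed here. A further ETFB entry, chr19:51354843-51355092, is not shown. The boxes thus do not set the 2 genes apart. Base composition was alike, with 65.6% G or C upstream of ETFA and 65.0% upstream of ETFB.

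Of the 37 genes, 29 have upstream sequence in the RefSeq table, in 43 entries of 250 bases before a start. ACAA1, ACAD11, CPT1B, CRAT, DECR1, DECR2, EHHADH and ETFDH have none. On either strand a GC box stood in 76.7% of these entries, against 42.6% of 35116 entries for all genes, and a CCAAT box in 23.3%, against 32.0%. The core site AGGTCA of nuclear receptors stood in 2.33% (in ACAD10), against 12.1%. The PPAR direct repeat, 2 such sites 1 base apart, and the ERR site TCAAGGTCA were found in 0 of the 43 entries, against 0.0171% and 0.319% of all entries. These are matches of letters within short windows and say nothing of binding further away.

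In the peroxisomal cycle every gene had a negative fold change, against 48.2% of all genes. Of these 5 genes 2 had no overlap, where 14.3% of all genes were lower without overlap. A single gene makes much of a share of 5. ACAA1, the peroxisomal thiolase, stood at 17.1, 13.4 and 22.1 CPM in knockdown 1, 2 and 3 and at 24.9, 27.3 and 27.4 CPM in controls, all below the controls (log2 fold change -0.60 ± 0.20 SE, edgeR adjusted p = 0.144). ACAA1 has 19.7% of its exon bases opposite DLEC1. HSD17B4, the D-bifunctional protein, stood at 126, 91.9 and 186 CPM in knockdown 1, 2 and 3 and at 180.4, 228 and 192 CPM in controls (log2 fold change -0.57 ± 0.23 SE, edgeR adjusted p = 0.205). Knockdown 3 was above control 1 there, and the value was -0.88 without it (edgeR adjusted p = 0.0125) and -0.37 without knockdown 2 (adjusted p = 0.288).

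EHHADH, the L-bifunctional protein and a classical PPARA target in liver, averaged 10.6 ± 4.18 CPM in libraries labelled knockdown and 15.9 ± 1.7002 CPM in controls (log2 fold change -0.59, edgeR adjusted p = 0.251; -0.35 without knockdown 2 and -0.93 without knockdown 3). ACOX3, an oxidase for branched chains, was tightly grouped at 5.45 ± 0.324 and 6.56 ± 0.200 CPM, without overlap (log2 fold change -0.27, edgeR adjusted p = 0.506). SCP2, a thiolase and sterol carrier, averaged 73.3 ± 17.95 and 88.1 ± 9.05 CPM. PPARA itself stood at 20.4, 22.003 and 27.5 CPM in knockdown 1, 2 and 3 and at 25.3, 35.7 and 26.7 CPM in controls. The groups overlapped at knockdown 3 (log2 fold change -0.33 ± 0.19 SE, 95% interval -0.75 to 0.10, edgeR adjusted p = 0.358), and the value was -0.16 without control 2.

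**Figure D4:**
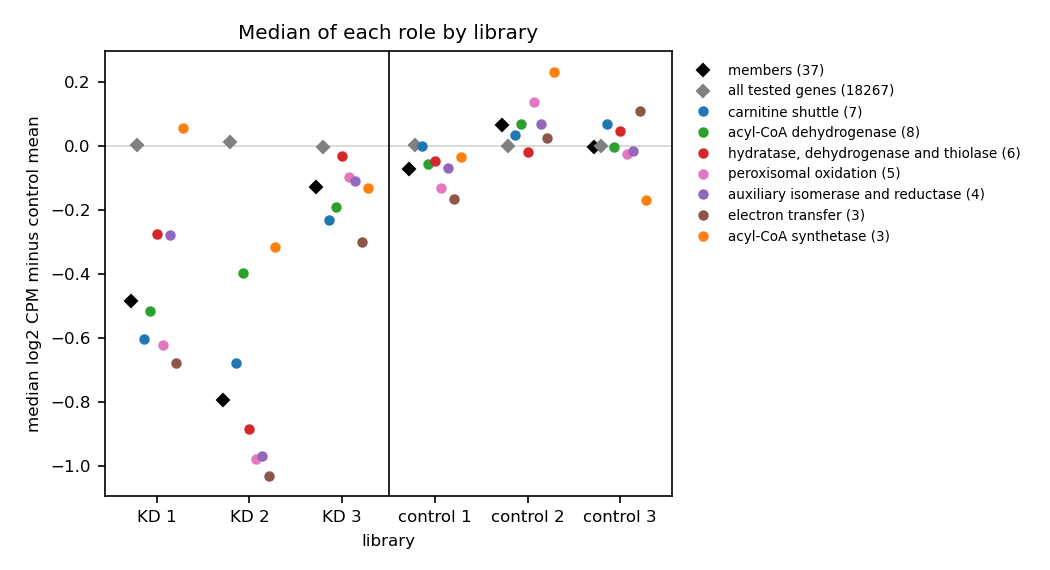
Median over the tested genes of each role (coloured points, gene number in brackets, PPARA left out), of all 37 (black diamonds) and of all tested genes (grey diamonds), as log2 CPM minus the control mean, by library. All roles but the synthetases lie below 0 in each library labelled knockdown, from -0.03 to -1.03, while the controls run from -0.17 to 0.23.

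Around the pathway, the ketone body genes had the lowest list median, at -0.80 over 7 tested genes, 5 of them lower and 0 higher at an unadjusted p under 0.05. Over all genes 10.6% were lower and 9.93% higher at this p. The thiolase ACAT1 averaged 44.3 ± 17.5 CPM in libraries labelled knockdown and 75.1 ± 6.19 CPM in controls, and BDH2 7.29 ± 2.85 and 15.1 ± 0.902 CPM. ACAT2, a cytosolic thiolase that also feeds cholesterol synthesis, averaged 119.9 ± 36.2 and 219 ± 51.3 CPM. Their edgeR adjusted p-values ran from 0.0989 to 0.131, and 7.36% of all genes had, like these 3, an unadjusted p under 0.01.

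Other peroxisomal oxidation genes had 3 of 11 lower and 0 higher (median -0.35), led by the thioesterase ACOT8 at 10.3 ± 1.45 and 17.6 ± 0.795 CPM. Peroxisome biogenesis had 2 of 15 lower (median -0.19): the import receptors PEX7, at 6.80 ± 1.15 and 12.0 ± 1.24 CPM, and PEX5, at 34.8 ± 5.91 and 66.2 ± 25.7 CPM, where control 3 alone stood at 36.65 CPM. Other acyl-CoA synthetases had 2 of 10 lower and 1 higher (median -0.27), with the acetyl-CoA synthetase ACSS2 at 11.4 ± 2.89 and 19.3 ± 2.35 CPM. In carnitine synthesis and transport 1 of 6 was lower (median -0.04), namely ALDH9A1 at 55.5 ± 8.24 and 81.0 ± 9.77 CPM. The shares lower at this p were 27.3% of the peroxisomal oxidation list and 13.3% of peroxisome biogenesis, against 10.6% of all genes, so the biogenesis share was near the background. In the lists of 10 and 6 genes a single gene makes much of the share. EdgeR called 0 genes of these lists after adjustment.

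The other lists had medians from -0.28 to 0.19, against 0.02 over all genes. The genes named for each need not be those counted as lower or higher. Among PPAR regulators 1 of 12 was lower and 1 higher (median 0.06), with the corepressor NCOR1 at 270.4 ± 30.0 CPM in libraries labelled knockdown and 308 ± 36.6 CPM in controls and MED1 at 187 ± 10.8 and 190 ± 6.92 CPM. PPAR targets outside oxidation had 0 of 7 past an unadjusted p of 0.05 (median 0.19), with PLIN2 at 9.48 ± 0.438 and 12.8 ± 2.08 CPM and PDK4 at 6.05 ± 1.40 and 8.46 ± 0.521 CPM. Malonyl-CoA and AMPK genes, which restrain or release CPT1, had 1 of 10 lower and 1 higher (median -0.01), with ACACA at 189 ± 10.8 and 213 ± 23.2 CPM and PRKAA1 at 129 ± 22.4 and 140.2 ± 13.1 CPM. Flavin supply, which makes the cofactor of the dehydrogenases, had 0 of 10 lower and 1 higher (median 0.08), with FLAD1 at 58.4 ± 6.28 and 58.2 ± 3.61 CPM and RFK at 47.4 ± 3.61 and 54.9 ± 6.74 CPM. Lipid droplet lipolysis had 2 of 7 lower and 0 higher (median -0.04). PLIN3 averaged 19.7 ± 7.58 and 31.8 ± 3.77 CPM. ABHD5, at 26.1 ± 3.98 and 20.3 ± 1.74 CPM, was not among the lower genes. The dehydrogenases of branched-chain and lysine breakdown had 0 of 3 (median -0.28), with IVD at 48.2 ± 15.7 and 42.5 ± 3.19 CPM and ACAD8 at 14.1 ± 0.421 and 17.6 ± 2.08 CPM.

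The 7 genes that HEK293 is known to express summed to 1795 to 2524 CPM in libraries labelled knockdown and 1280 to 1784 CPM in controls, without overlap. At an unadjusted p under 0.05, VIM (1277 ± 255 and 805 ± 123 CPM) and INA (72.9 ± 29.1 and 38.1 ± 13.3 CPM) were higher and NEFL (125 ± 8.80 and 160.4 ± 6.01 CPM) was lower. Markers of other cell types were checked beside these values. All 6 hepatocyte markers were below the filter, with a summed level of 0.452 to 1.49 CPM in libraries labelled knockdown and 0.225 to 0.856 CPM in controls. The 5 markers of kidney proximal tubule, of which 4 were tested, summed to 19.6 to 37.2 CPM in libraries labelled knockdown and 58.1 to 86.1 CPM in controls. Most of that was LRP2, an endocytic receptor, at 16.99 ± 6.29 and 51.5 ± 17.7 CPM, and the sodium-phosphate carrier SLC34A1 was near 0. At an unadjusted p under 0.05, LRP2 and the peptidase GGT1 (6.77 ± 1.04 and 12.5 ± 1.91 CPM) were lower, and the water channel AQP1 (1.82 ± 1.35 and 0.750 ± 0.264 CPM) was higher. Adipocyte and striated muscle markers summed to 3.22 to 5.31 and 2.25 to 2.87 CPM, leukocyte markers to 1.27 to 3.03 and 0.719 to 1.75 CPM, and fibroblast markers, mostly LUM and COL1A1, to 8.29 to 12.5 and 14.97 to 23.6 CPM. The part of these shifts in the values of the oxidation genes was not tested, and in bulk RNA fewer cells of a type and less RNA per cell cannot be told apart.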

How the data were processed

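Raw counts of reads by Ensembl gene, as deposited by the authors, covered 6 total RNA libraries made with a stranded kit after ribosomal RNA removal, per the labels' protocols. The submitters' processing notes name hg38, HTSeq, TopHat2 2.0.13 and bcl2fastq 2.18. For the annotation release and strand setting the sources used here give nothing. The 5 special HTSeq rows stayed out of library sizes and tests. Symbols, exon lengths and coordinates came from GENCODE release 29 by Ensembl ID (57055 of 60675 matched, and 184 of 184 listed symbols). EdgeR 4.0.16 in R 4.3.3 was run with TMM factors, filterByExpr and two-sided quasi-likelihood F tests (knockdown over control) on all 18267 genes, with Benjamini-Hochberg adjusted p-values called under 0.05. Log2 CPM used a prior count of 2. RPKM is TMM-scaled CPM per kilobase of merged exons. Standard errors and intervals were derived from the F statistics. The code of the test was checked on counts simulated with the same dispersion in both groups, so that check does not cover groups of unequal spread.

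Replicates differed by more than sampling noise and were each counted as a sample. Chi-square per degree of freedom was 40.3 to 75.2 between libraries labelled knockdown and 11.6 to 20.2 between controls. The median SD of log2 CPM over genes was 0.31 in libraries labelled knockdown and 0.16 in controls. EdgeR's fit shares the dispersion of each gene between the groups and does not model this difference. Values in every library were given for genes with an unadjusted p under 0.05 and for MOCS2, PPARA and the CPT1, flavoprotein and trifunctional genes. Genes of other lists were named at an unadjusted p under 0.01, or else the 2 most abundant. A gene that met this rule is not reported here. The members and lists were chosen with earlier results of these data known. Alternatives were DESeq2 size factors, DESeq2 1.42.0, limma 3.58.1 voom, a floor of 1 CPM in at least 3 libraries, no filter, a replicate block, and leaving out each library.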

Additional observations from a re-analysis of the deposited data

How the results depend on the processing

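Counts of calls depended on the tool and on 1 library, while the median of the 37 genes kept its sign under every alternative run, from -0.59 to -0.29. With 0 genes called lower by edgeR, DESeq2 called 6 of the 37 and edgeR without a filter 8. Over all genes these settings called 559 higher and 586 lower, and 694 higher and 880 lower. Without a filter the median over all genes was 0.12, against 0.02 with it. The DESeq2 calls were ETFB, CRAT, CPT1A, ACAA2, ACADSB and CPT2, and the unfiltered fit added ACADVL and ECI2. When each library was left out, the 37 gave 0 to 15 lower calls, and all genes 0 to 1232 higher and 0 to 1583 lower, the high values all without knockdown 3. Without control 3 edgeR called 4 genes lower and 0 of them were among the 37. At an unadjusted p under 0.05, leaving out a library gave 9 (without control 2, where 5.605% of all genes were lower) to 22 (without knockdown 3, 16.4% of all genes) lower, and 0 to 1 higher (1 without knockdown 2, 10.9% of all genes). The groups failed to overlap in 14 to 26 genes lower: 26 without knockdown 3 (25.0% of all genes), 21 without control 1 (18.3%) and 14 without each of the others (16.8% to 21.3%), with 0 to 1 higher. Fewer libraries separate more often, so these shares and not the 14.3% over 6 libraries are their background. The cause of these shifts was not tested. Fits that left out a library also rested on fewer libraries.

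The replicate block called 6 genes higher and 13 lower over all genes and 0 of the 37. Same-numbered libraries did not deviate together (correlations 0.11, -0.17 and -0.12, with 2 of 6 libraries closest to their own number). With 3 libraries per group this cannot exclude a pairing, and the titles give only a replicate number. By over 1.5 times, 25 of the 37 genes shifted in log2 fold change when some library was absent, 19 without knockdown 2 and 13 without knockdown 3. The sign turned in 13 of 444 gene and setting pairs, in 8 genes with small fold changes. When each library was left out, CPT1B ran from -0.44 to 0.056, ACADL from -0.043 to 0.26, ACAD11 from -0.26 to 0.064, HADHA from -0.31 to 0.055, ECHS1 from -0.53 to 0.036, DECR1 from -0.49 to 0.38, DECR2 from -0.31 to 0.044 and ACSL1 from -0.20 to 0.027. Knockdown 2 left out turned CPT1B, ACADL, HADHA, ECHS1, DECR2 and ACSL1, knockdown 1 ACAD11, knockdown 3 DECR1, control 1 DECR1 and DECR2, and control 3 ACADL. DECR1 was also negative by voom (-0.13) and with the block (-0.11). Depth limits the low members, with as few as 29 reads in a library for ACAD11, 32 for CPT1B and 37 for CRAT.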
